A study of Mus musculus with 64 samples.

Results

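The immunoglobulin loci of mouse B cells were examined as the set of all called peaks that overlapped 3 intervals of build mm10. These were the heavy chain locus (chr12:113200000-116010000), the kappa light chain locus (chr6:67550000-70730000) and the lambda light chain locus (chr16:19020000-19270000). The intervals held 4164 of the 1084231 peaks on the autosomes and X. Of these, 1208 lay in the heavy chain locus, 2442 in kappa and 514 in lambda. The members were chosen by position alone, and no measured value entered the rule.

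The peaks came from CUT&RUN, in which an antibody directs a nuclease to cut the chromatin around its target. The cells were splenic B cells positive for CD23, a marker of follicular B cells, from female F1 mus x cast mice. In that cross the mothers were C57BL/6 with 1 copy of Xist deleted and the fathers were M. m. castaneus. Cells were either unstimulated (0 h) or cultured for 12 or 24 h with 1 µM CpG, DNA that activates the receptor TLR9. All groups share the cross, the tissue and the selection, and the labels do not say which animals inherited the deletion. The name of every list holds the word Cast, and the peaks were read as those of the castaneus chromosome, which on autosomes is the paternal one. H3K27me3 was profiled in 3 unstimulated libraries, 3 of 12 h and 4 of 24 h. H2AK119Ub had 4, 3 and 5 libraries in that order and H3K9me3 had 4 per time, whereas H3K27ac, Suz12 and Ring1B had 3 per time.

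An immunoglobulin locus is assembled by recombination. The enzymes Rag1 and Rag2 join 1 variable (V) segment, in the heavy chain also 1 diversity (D) segment, to a joining (J) segment ahead of the constant region genes, and the DNA between the joined segments is lost. Stimulated B cells can then switch class, when a deletion brings another heavy chain constant gene, such as Ighg1 or Igha, next to the joined segments in place of Ighm and Ighd. Of the 6 features, H3K27ac marks active promoters and enhancers, while H3K9me3 marks silenced heterochromatin. H3K27me3 is laid down by the Polycomb complex that holds Suz12, and H2AK119Ub by the complex that holds Ring1B. In bulk samples, fewer cells that still carry the DNA of a segment and less signal per cell cannot be told apart.

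The gene starts that the RefSeq promoter table (assembly GRCm38.p6) places in the loci are few, since V, D, J and C segments are not among them. It matched 13 genes there, each with a window from 250 bases before to 50 bases after the start. The 4 windows below are shown because they span the kappa locus and carry different features. They run from the far V end (Gm38573, chr6:67721387-67721686, minus strand) through the V segments (LOC108169192, chr6:68880650-68880949, minus) to the J side (Gm46961, chr6:70718827-70719126, minus). The last lies just past the constant gene (Gm30211, chr6:70728963-70729262, plus). Capitals mark the octamer ATGCAAAT or its reverse complement ATTTGCAT, searched on both strands. It is the motif of V segment promoters that Pou2f1 and Pou2f2 bind.
Gm38573: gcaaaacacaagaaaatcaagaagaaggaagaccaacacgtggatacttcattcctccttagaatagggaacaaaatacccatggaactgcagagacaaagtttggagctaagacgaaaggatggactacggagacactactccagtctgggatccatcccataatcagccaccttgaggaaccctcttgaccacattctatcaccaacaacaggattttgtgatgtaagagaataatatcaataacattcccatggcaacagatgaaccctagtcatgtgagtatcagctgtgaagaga
LOC108169192: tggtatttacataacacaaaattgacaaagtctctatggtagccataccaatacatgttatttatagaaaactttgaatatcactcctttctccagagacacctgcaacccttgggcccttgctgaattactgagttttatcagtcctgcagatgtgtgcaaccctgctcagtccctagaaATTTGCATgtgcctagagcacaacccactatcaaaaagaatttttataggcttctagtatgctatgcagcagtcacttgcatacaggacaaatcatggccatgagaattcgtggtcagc
Gm46961: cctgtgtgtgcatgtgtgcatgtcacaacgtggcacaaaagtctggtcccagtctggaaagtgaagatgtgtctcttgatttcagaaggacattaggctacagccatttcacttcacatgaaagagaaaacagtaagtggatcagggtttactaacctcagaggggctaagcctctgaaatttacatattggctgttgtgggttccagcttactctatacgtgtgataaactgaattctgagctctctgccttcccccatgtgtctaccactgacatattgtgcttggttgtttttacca
Gm30211: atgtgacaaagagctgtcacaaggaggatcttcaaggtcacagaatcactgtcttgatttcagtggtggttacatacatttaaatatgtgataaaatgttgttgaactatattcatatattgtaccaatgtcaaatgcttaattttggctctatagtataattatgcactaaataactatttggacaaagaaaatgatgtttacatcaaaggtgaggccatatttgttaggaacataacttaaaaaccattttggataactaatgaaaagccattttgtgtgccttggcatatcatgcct
Of the 13 windows, 2 held the octamer, those of LOC108169192 and Gm35545, against 570 of all 32851 windows of the same length (1.74%). In LOC108169192 it lay 69 bases before the gene start. The 4 windows held 3, 1, 2 and 0 CpG dinucleotides in the order shown, where the median over all windows was 7.

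The peaks over these windows differed by feature. The Gm30211 window was covered by H3K27ac over its whole length in 9 of 9 libraries and held no H2AK119Ub peak in any of 12. Suz12 touched it in 2 of 3 libraries and Ring1B in 1 of 3, both at 24 h. The Gm46961 window carried H3K27ac in 2 of 3, 3 of 3 and 2 of 3 libraries at 0, 12 and 24 h, and H2AK119Ub in 1 of 4, 2 of 3 and 4 of 5. At the far V end, the Gm38573 window carried H2AK119Ub in 3 of 4, 1 of 3 and 0 of 5 libraries. The window with the octamer, LOC108169192, was touched by 1 H2AK119Ub library at 24 h and by no other feature. The windows of Adam6a and Adam6b, genes needed for male fertility that sit between V and D segments, held no peak in any library. Those 2 windows share an identical run of 199 bases, and whether reads were lost there was not tested.

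Coverage of the whole genome moved with time in the histone marks, and this touches every comparison below. The covered share of the autosomes averaged 2.11%, 4.28% and 9.66% at 0, 12 and 24 h for H3K27me3, and 1.59%, 5.20% and 5.36% for H2AK119Ub. It averaged 2.92%, 7.89% and 9.40% for H3K9me3 and 1.58%, 3.48% and 3.43% for H3K27ac. For Suz12 and Ring1B the means stayed between 2.35% and 3.22%. List lengths ran from 1450 peaks (H3K27ac) to 32209 (H3K9me3), sequencing depth is unknown, and no 2 lists were identical. A value is therefore given as the covered percent of a region and as its relative coverage, the covered percent divided by that of the autosomes in the same list. A relative coverage of 1 means as much as the autosomes. The cells carried H3K27ac at B cell genes: 10 of 10 B cell markers held a peak in 5 or more of the 9 libraries. Of T cell markers 1 of 8 did, with Cd3e, Cd4, Cd8a, Bcl11b and Lat at 0. Of myeloid markers 1 of 6 did (Lyz2, Cd14 and Mpo at 0), and of NK markers 1 of 3 (Ncr1 and Nkg7 at 0). Of plasma cell markers 2 of 5 did, with Sdc1 and Jchain at 0, and the mean coverage of that list was 0 in every 0 h library, 17.8% to 21.5% at 12 h and 16.1% to 31.7% at 24 h. The mean coverage of the NK list was also 0 in every 0 h library, with 9.44% to 19.1% at 12 h and 5.80% to 26.9% at 24 h. The part of either list in the changes below was not tested.

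The loci were unlike one another in how many features they carried. The heavy chain locus was divided into a constant part of 230 kb (chr12:113200001-113430000, from past Igha to Ighm and the J segments) and a variable part of 2580 kb (chr12:113430001-116010000, the D and V segments). In kappa, Igkc and the J segments share the last of 318 bins of 10 kb. In the heavy chain variable part, 127 of 258 bins (49.2%) had no peak of any feature in any of 61 libraries. The shares were 24.0% (76 of 317) in the kappa variable part, 8.70% (2 of 23) in the heavy chain constant part and 21.8% of autosomal bins. Whether reads of the castaneus chromosome can be placed in the empty bins was not tested. H3K9me3 gave the fewest peaks, 90 in all and 1 to 15 per library. H3K27ac gave 385 and H3K27me3 576, while H2AK119Ub, Suz12 and Ring1B each gave between 989 and 1076.

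The longest peaks lay in 4 places. A stretch of H2AK119Ub of 65109 bp at chr6:68290627-68355735 (24 h replicate 1) covered the V segments around Igkv11-106, and a peak of 60654 bp in 0 h replicate 1 covered nearly the same place. The longest H3K27me3 peak, of 49232 bp (24 h replicate 4), lay inside it. The longest H3K27ac peak, of 44947 bp at chr6:70712329-70757275 (12 h replicate 2), spanned Igkc. A H3K27ac peak of 42919 bp at chr12:113219680-113262598 (24 h replicate 3) covered the end of the heavy chain locus past Igha. The longest Ring1B peak, of 34056 bp at chr12:114815215-114849270 (12 h replicate 1), lay over the heavy chain V segments Ighv1-30 to Ighv1-33. The median length was 7044 bp for H2AK119Ub against 6839 bp over all its peaks, and 2396 bp against 2457 bp for Ring1B. It was 6531.5 bp against 7398 bp for H3K27me3 and 5052.5 bp against 7043 bp for H3K9me3.

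**Figure D1:**
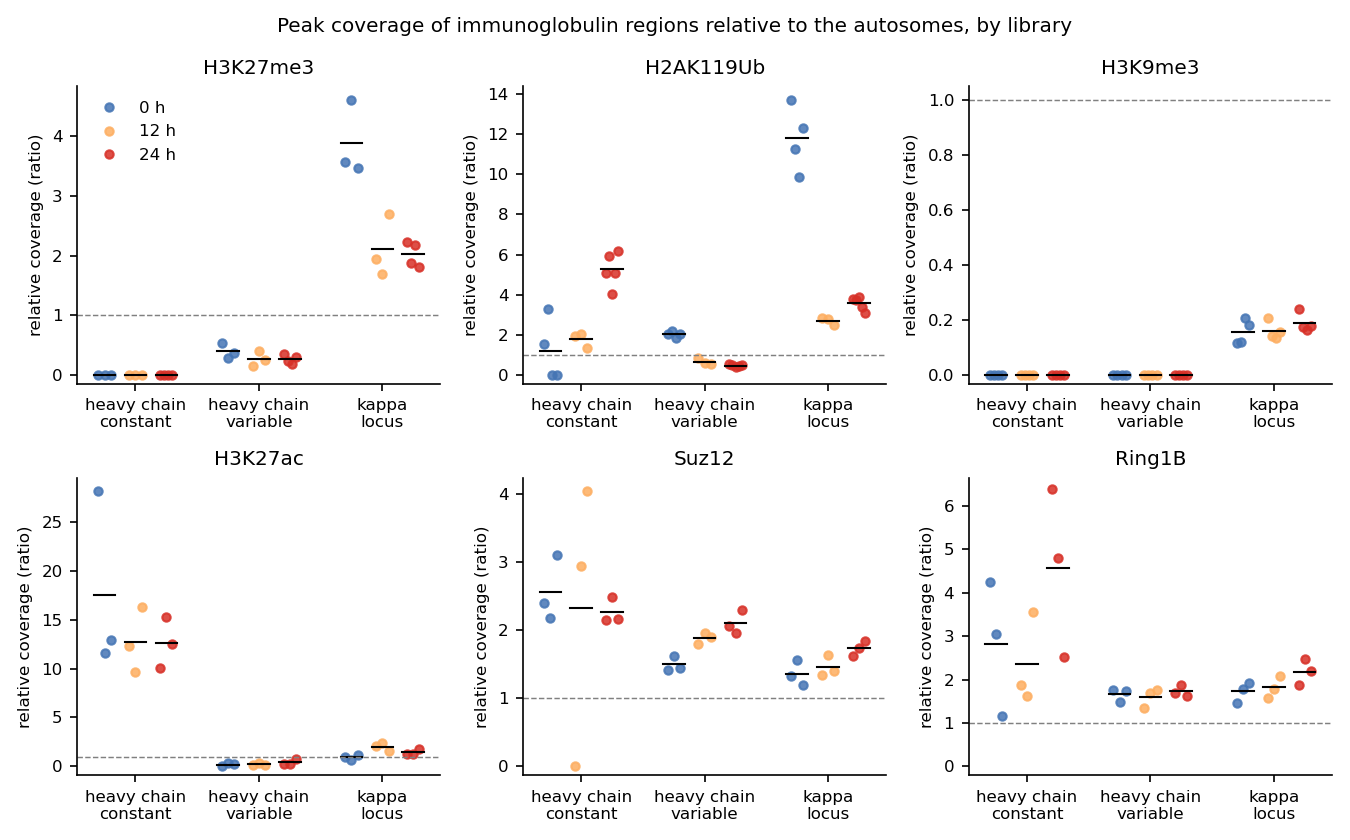
Relative coverage (ratio to the autosomes in the same list, vertical axis) of the heavy chain constant part, heavy chain variable part and kappa locus for each antibody, 1 point per library, by hours of CpG, with bars at the means. H2AK119Ub in kappa stands at 9.88 to 13.7 at 0 h and at 2.47 to 3.86 later, while in the heavy chain constant part its 24 h libraries stand above the rest.

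Constant and variable parts of the heavy chain locus were set against each other within each library, to ask which features divide them. H3K27ac was denser on the constant part, which was covered to 18.6%, 22.9% and 27.2% in the 0 h libraries, 37.1%, 48.1% and 39.1% at 12 h and 51.7%, 32.1% and 38.5% at 24 h. The variable part was covered to at most 2.46% in any of the 9 libraries. The difference in relative coverage was 14.0 ± 5.74 (SD, n = 9), higher in the constant part in 9 of 9 libraries (exact sign-flip permutation test, 2-sided, adjusted p = 0.00977 over 5 antibodies). No H3K27me3 peak touched the constant part in any of 10 libraries, while the variable part was covered to 0.357% at the least and 3.73% at the most, a difference of -0.304 ± 0.113 (SD, n = 10). The sign-flip permutation test is not read here: with the constant part at 0 in every library the sign was fixed, and with lists of equal length the test did not pass (exact permutation adjusted p = 0.208). H3K9me3 had no peak in either part in any of 12 libraries, so no test could be made.

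For H2AK119Ub the constant minus variable difference rose between 0 and 24 h. Whether it was below 0 at 0 h was not tested. The constant part was lower than the variable part in 3 of 4 libraries at 0 h and higher in all 8 libraries at 12 and 24 h. The differences averaged -0.81 ± 1.47 (SD, n = 4), 1.12 ± 0.31 (n = 3) and 4.79 ± 0.81 (n = 5), and they differed over the 3 times (exact permutation test, adjusted p = 0.000902). Pooled over the times the difference was 2.01 ± 2.73 (SD, n = 12, exact permutation adjusted p = 0.0397), a call that was kept only when 0 h replicate 1, 3 or 4 or 12 h replicate 3 was left out (adjusted p up to 0.0793). Ring1B was higher in the constant part in 7 of 9 libraries, by 1.58 ± 1.63 (SD, exact permutation adjusted p = 0.0391), kept only without 0 h replicate 3 or 12 h replicate 1 or 2 (adjusted p up to 0.0586). Suz12 was higher in 7 of 9 libraries, by 0.56 ± 1.14 (SD, exact permutation adjusted p = 0.184). It passed without 12 h replicate 1, which had no Suz12 peak in the constant part (adjusted p = 0.0293).

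**Figure D2:**
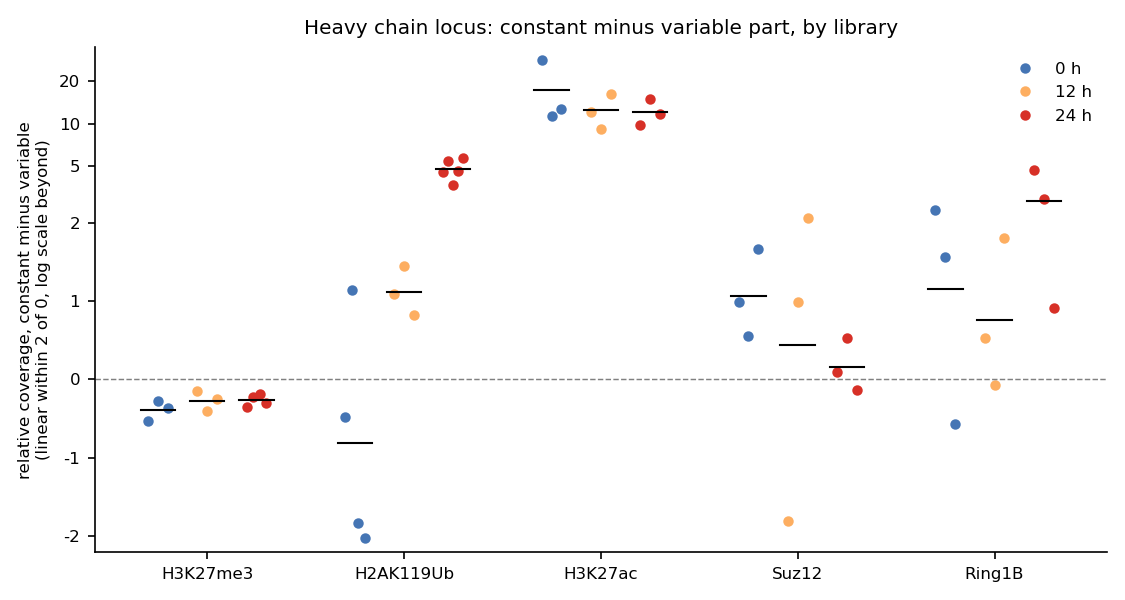
Relative coverage of the heavy chain constant part minus that of the variable part (vertical axis, linear within 2 of 0 and logarithmic beyond), 1 point per library and bars at the means, by antibody and hours of CpG. H3K27ac lies above 0 in 9 of 9 libraries and H3K27me3 below 0 in 10 of 10, and H2AK119Ub goes from a mean of -0.81 at 0 h to 4.79 at 24 h.

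Within the constant part, H2AK119Ub rose in relative coverage by 24 h. The covered percent was 2.20, 7.84, 0 and 0 in the 0 h libraries, 9.53, 13.4 and 5.52 at 12 h, and 44.0, 27.3, 18.4, 12.2 and 40.9 at 24 h. Relative coverage was 1.55, 3.30, 0 and 0 at 0 h, 1.91, 2.05 and 1.36 at 12 h, and 5.08, 5.94, 4.03, 5.06 and 6.19 at 24 h. The 24 h libraries did not overlap the others on the relative scale, and those at 0 and 12 h overlapped each other. The means were 1.21 ± 1.57 (SD, n = 4), 1.77 ± 0.368 (n = 3) and 5.26 ± 0.851 (n = 5). They differed over the 3 times (2-sided exact permutation test, p = 0.00126, adjusted p = 0.00631 over 15 tests). By pairs the exact p was 0.00794 for 24 against 0 h, 0.0179 for 24 against 12 h and 0.543 for 12 against 0 h. The call was lost with the same number of peaks taken from each list (difference 2.60, exact permutation adjusted p = 0.337). Without scaling the difference was 26.0 percentage points, with an exact permutation adjusted p of 0.05, which is not under the threshold.

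The Ighm side of the constant part held no H2AK119Ub: in the 6 bins from 113370 to 113430 kb, which hold Ighd, Ighm and the J segments, no H2AK119Ub peak was called in any of 12 libraries. Over the bins of all 3 loci, 15 of 202 tested bins passed the limma test for H2AK119Ub (adjusted p of 0.05), against 25.5% of all bins tested in the genome. Of these, 6 were higher at 24 h than at 0 h (22.1% of all bins) and 5 lower (0.722% of all bins). Of the 6 higher bins 5 lay in the heavy chain constant part, where 12 were tested, all between Ighg3 and Ighg2c. After scaling the count there was 3 of 12 (25%), near the 18.2% of all bins that were then higher. It was 3 with the stricter lists, where 25.3% of all bins were called in either direction. When 1 library was left out it was between 3 and 5, with 14.4% to 38.9% of all bins called in either direction.

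The bin at the Ighg3 gene (113360 to 113370 kb), which encodes the constant region of IgG3, showed the pattern most plainly. H2AK119Ub covered 0 in 4 of 4 libraries at 0 h. At 12 h it covered 0%, 42.5% and 74.6%, and at 24 h 71.6%, 82.2%, 73.8%, 65.0% and 64.4%. The 0 and 24 h libraries did not overlap, and the difference was 71.4 percentage points (SE 13.7, limma adjusted p = 0.00546). Next to Ighg2c, on its Ighg2b side (113290 to 113300 kb), the mark was at 0 in the 0 h libraries. It covered 49.4%, 74.9% and 0% at 12 h and between 50.2% and 81.2% at 24 h (difference 70.0 points, SE 14.1, limma adjusted p = 0.00768).

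Ighg1, the constant gene of IgG1, lies at chr12:113326541-113330523 across 2 bins, and H2AK119Ub was higher at 24 h in both. In the bin of 113330 kb the values were 0%, 13.4%, 0% and 0% at 0 h, 58.9%, 40.1% and 52.4% at 12 h, and 99.0%, 97.8%, 100%, 0% and 55.5% at 24 h. The 24 h replicate 4 overlapped the 0 h libraries, and the difference was 67.1 points (SE 18.3, limma adjusted p = 0.0360). In the bin of 113320 kb, 0 h replicate 2 was already at 100% beside 3 libraries at 0, and the 24 h libraries ran from 66.9% to 100% (difference 61.2 points, SE 20.6, limma adjusted p = 0.0463). These 2 bins did not pass after scaling (limma adjusted p = 0.104 and 0.292).

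Taking each gene with 2 kb on either side, Ighg3 was the one heavy chain constant gene to pass for H2AK119Ub, of 4 tested. Ighg3 (chr12:113357442-113361232) went from 0 in 4 of 4 libraries at 0 h to 37.5%, 35.3%, 27.1%, 35.4% and 78.0% at 24 h (difference 42.7 points, SE 10.8, limma adjusted p = 0.0283, where 33.2% of all gene regions tested were called). The others differed by 54.3 points for Ighg1 (limma adjusted p = 0.113), 41.7 for Ighe, the IgE gene (adjusted p = 0.0910), and 39.0 for Ighg2c (adjusted p = 0.0603, and 0.0272 after scaling, where 38.8% of all gene regions were called). Igha, the IgA gene, was covered in 2 of 5 libraries at 24 h, to 77.2% and 100%, and Ighg2b in 1 of 5, to 100%, too few for the test. Ighm and Ighd, whose products are the IgM and IgD of unswitched cells, were at 0 in all 12 libraries.

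H3K27ac in the constant part formed blocks that were present throughout and blocks that were seen after stimulation. The stretch from 113220 to 113260 kb, past and including Igha (chr12:113256204-113260236), was covered to at least 76.4% in every bin and every library. Enhancers of the 3′ regulatory region are known to lie past Igha. The bin of Ighm and the J segments (113420 kb), where the intronic enhancer of the locus is known to lie, was covered to between 65.2% and 70.3% in 9 of 9 libraries. Between these ends, the bins at Ighg1 (113320 kb) and on either side of Ighg2b (113310 and 113290 kb) had no H3K27ac peak in any 0 h library and one in every library at 12 and 24 h.

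In the Ighg1 bin H3K27ac covered 0 in 3 of 3 libraries at 0 h, 73.5%, 71.6% and 64.9% at 12 h, and 66.8%, 61.3% and 73.3% at 24 h. In the bin of 113310 kb the later values were 67.0%, 100% and 83.1% and then 100%, 58.0% and 75.5%, and in that of 113290 kb 74.9%, 71.7% and 60.6% and then 81.2%, 42.3% and 74.9%. The 0 h libraries did not overlap the later ones in these 3 bins, yet none passed over all bins (limma adjusted p = 0.0503, 0.0626 and 0.0714). How many bins of the genome had the same pattern was not counted. H3K27ac covered a mean of 1.58%, 3.48% and 3.43% of the autosomes at 0, 12 and 24 h, so the pattern is not shown to be particular to these bins. Over the 3 loci 1 of 85 tested bins was called for H3K27ac, against 0.344% of all bins, and it lay in lambda. That count became 0 without 0 h replicate 2 or 3, 12 h replicate 1 or 3, or 24 h replicate 3, as it did over all bins. It became 4 without 12 or 24 h replicate 2 (2.89% and 3.15% of all bins), and 5 without 24 h replicate 1 (4.85% of all bins). In the constant part 2 bins passed without 12 h replicate 2 and 3 without 24 h replicate 1 or 2. With the stricter lists 3 passed there (2.84% of all bins called). Ighg3 had a peak in 2 of 3 libraries at 0 h already, with 0%, 68.8% and 68.5% in its bin (113360 kb). The bin shared by Ighd and Ighm (113410 kb) was covered to 0%, 0% and 37.3% at 0 h, 66.0%, 73.5% and 72.9% at 12 h and 99.9%, 37.9% and 65.4% at 24 h (limma adjusted p = 0.185).

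**Figure D3:**
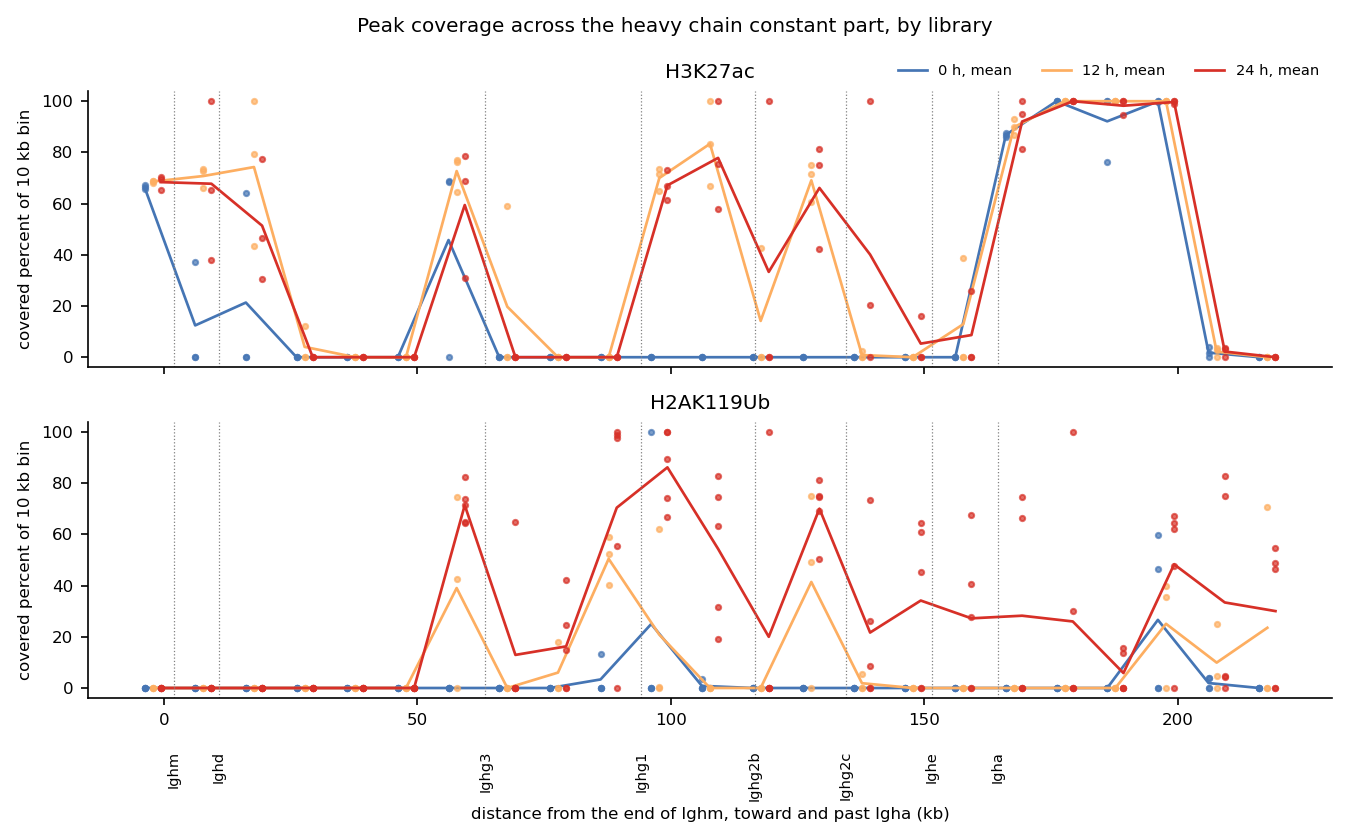
Covered percent of 10 kb bins (vertical axis) across the heavy chain constant part, by distance in kb from the end of Ighm, for H3K27ac (upper panel) and H2AK119Ub (lower panel), with points for libraries, lines for means at 0, 12 and 24 h and dotted lines at constant genes. H3K27ac stands at both ends at every time and at Ighg1 at 12 and 24 h, and H2AK119Ub at 24 h is high at Ighg3 and Ighg1 and 0 at Ighd and Ighm.

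Over the whole constant part the relative coverage by H3K27ac averaged 17.5 ± 9.19, 12.7 ± 3.39 and 12.7 ± 2.61 (SD, n = 3 each) and did not pass (exact permutation adjusted p = 0.704). H2AK119Ub and H3K27ac shared bins by 24 h. Counting bins that 50% or more of the libraries of a time touched with a peak, H2AK119Ub held 2, 6 and 12 of the 23 bins at 0, 12 and 24 h and H3K27ac 7, 12 and 13. At 24 h 7 bins held both, 58.3% of the bins with H2AK119Ub and 53.8% of those with H3K27ac. These lists come from separate libraries, so whether both marks sat on the same molecules was not measured. Ring1B held 6, 6 and 9 bins and Suz12 3, 5 and 6, and their relative coverage of the constant part did not pass (exact permutation adjusted p = 0.423 and 0.950). In the bin past Igha (113220 kb), Ring1B covered a mean of 52.1%, 34.7% and 70.3%, and Suz12 54.9%, 34.7% and 37.0%.

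The variable part of the heavy chain locus carried little of any histone mark, and there H2AK119Ub fell relative to the autosomes. Its covered percent was 2.87, 5.14, 2.06 and 2.96 at 0 h, 4.1, 3.97 and 2.18 at 12 h, and 4.57, 2.23, 1.67, 1.08 and 3.31 at 24 h, so the times overlapped. Relative coverage was 1.83 to 2.17 at 0 h, 0.535 to 0.824 at 12 h and 0.367 to 0.529 at 24 h, with no overlap between any 2 times. The means were 2.02 ± 0.139 (SD, n = 4), 0.656 ± 0.150 (n = 3) and 0.466 ± 0.0620 (n = 5; exact permutation p = 3.61e-05, adjusted p = 0.000541). Without scaling the difference between 24 and 0 h was -0.69 percentage points and did not pass (exact permutation adjusted p = 0.763). Suz12 moved the other way in relative coverage: 1.42, 1.63 and 1.45 at 0 h, 1.80, 1.96 and 1.91 at 12 h, and 2.07, 1.96 and 2.29 at 24 h (exact permutation p = 0.00714, adjusted p = 0.0268). By pairs, 3 against 3 libraries cannot give an exact p below 0.1, which 24 against 0 h reached. The call was lost without scaling, with the stricter lists and with lists of equal length (exact permutation adjusted p = 0.422, 0.0536 and 0.0536).

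What the variable part held was gathered at a few V segments. The bin of Ighv1-32 (114830 kb) was the most covered for 3 features. H2AK119Ub covered a mean of 95.7%, 75.5% and 80.2% of it at 0, 12 and 24 h, Ring1B 90.0%, 93.3% and 80.8%, and Suz12 77.3%, 78.4% and 69.2%. At 2 called bins nearby H2AK119Ub fell. At the adjoining Ighv1-31 (114820 kb) H2AK119Ub averaged 89.3%, 88.0% and 25.7% (24 minus 0 h -63.6 points, SE 16.3, limma adjusted p = 0.0148). At Ighv1-21-1 (114730 kb) it averaged 97.7%, 57.5% and 37.5% (-60.1 points, SE 12.3, limma adjusted p = 0.00754). The called bin of Ighv1-33 went from 0 at 0 h to 51.6% at 12 h and 12.4% at 24 h (limma adjusted p = 0.0484).

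H3K27me3 in the heavy chain variable part stood on nearby segments and also on bins far from them. The bin of Ighv1-27 and Ighv1-28 (114800 kb) averaged 57.3%, 36.2% and 72.2%, and that of Ighv1-29 and Ighv1-30 (114810 kb) 36.85%, 50.9% and 71.2%. A bin without an annotated segment (113740 kb) averaged 26.3%, 51.4% and 75.3%. Ighv1-20 (114720 kb) rose from 1.02% at 0 h to 41.9% and 63.4% (24 minus 0 h 62.4 points, SE 9.97, limma adjusted p = 0.00209), and a bin on the D side with no annotated segment (113500 kb) from 0 to 57.5% (adjusted p = 0.0318). For H3K27ac the most covered bin was that of the D segments Ighd6-1 and Ighd1-1 and Adam6b (113480 kb), with means of 48.3%, 60.8% and 38.2%, and the next was Ighv15-2 (114560 kb) with 0, 36.1% and 57.5%. At 24 h all 11 bins with H2AK119Ub in at least 50% of libraries also held Suz12 and Ring1B, but the 41 Suz12 bins and 40 Ring1B bins were mostly elsewhere (26.8% and 27.5% held H2AK119Ub). Counted over the 121 V segments with no pseudogenes, peaks of H2AK119Ub touched 4 in at least 50% of libraries at 0 h and 2 at 24 h, those of H3K27me3 0 and 3, and those of Ring1B 7 and 8.

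H2AK119Ub covered more of the kappa locus than of the heavy chain locus at 0 h, and its relative coverage of kappa fell with stimulation. It was covered to 19.4%, 26.8%, 11.1% and 17.7% at 0 h, 14.0%, 18.1% and 10.1% at 12 h, and 32.6%, 17.1%, 17.6%, 8.10% and 20.4% at 24 h. Those values overlapped between all times. Divided by the autosomes of the same list they were 13.7, 11.3, 9.88 and 12.3 at 0 h, 2.81, 2.77 and 2.47 at 12 h, and 3.77, 3.73, 3.86, 3.37 and 3.09 at 24 h, with no overlap between any 2 times. The means were 11.8 ± 1.63 (SD, n = 4), 2.69 ± 0.185 (n = 3) and 3.56 ± 0.325 (n = 5; exact permutation p = 7.22e-05, adjusted p = 0.000541).

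The covered percent itself did not fall: without scaling the difference between 24 and 0 h was 0.41 percentage points and did not pass (exact permutation adjusted p = 0.763). The autosomes of the same lists went from a mean of 1.59% to 5.36%. With the same number of peaks from each list the fall in relative coverage was 8.72 (exact permutation adjusted p = 0.00406), and it kept its call without any 1 library.

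**Figure D4:**
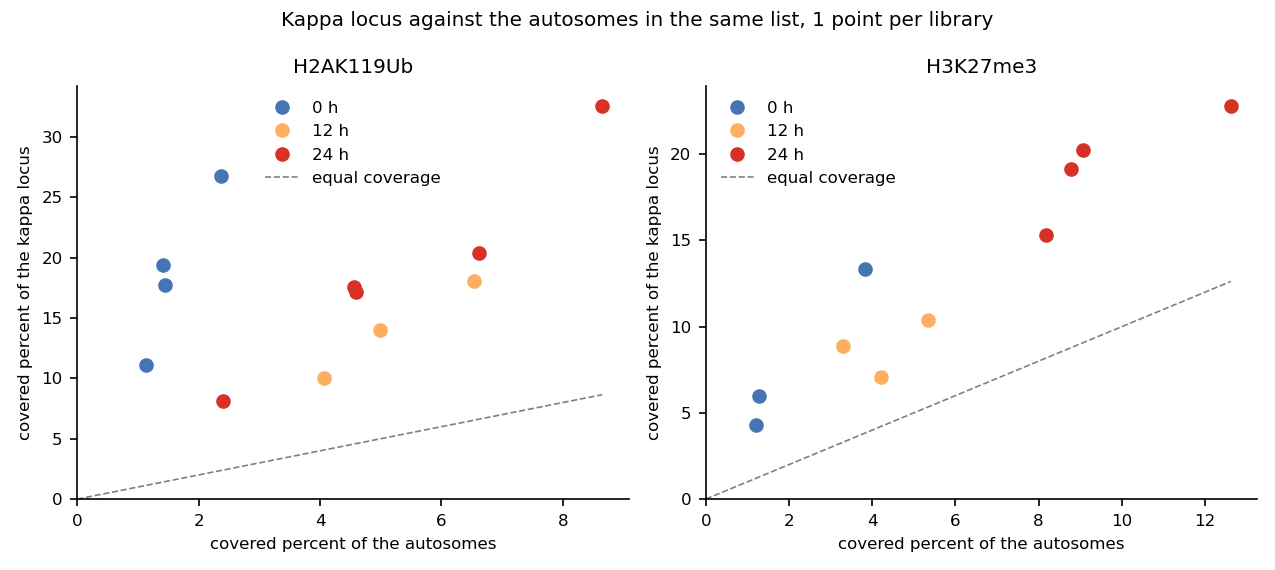
Covered percent of the kappa locus (vertical axis) against that of the autosomes in the same list (horizontal axis), 1 point per library, by hours of CpG. For H2AK119Ub the 0 h libraries lie at the left, between 1.13% and 2.38% of the autosomes, with 11.1% to 26.8% of kappa, and the 24 h libraries spread from 8.10% to 32.6% of kappa.

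H3K27me3 covered more of kappa with time and less of it relative to the autosomes. Covered percent was 4.31, 5.95 and 13.3 at 0 h, 10.4, 7.08 and 8.88 at 12 h, and 20.2, 15.3, 19.2 and 22.8 at 24 h, the 24 h libraries standing above all others. Relative coverage averaged 3.88 ± 0.633 (SD, n = 3), 2.11 ± 0.530 (n = 3) and 2.02 ± 0.214 (n = 4; exact permutation p = 0.0138, adjusted p = 0.0414), with the 0 h libraries above all others. The difference was -1.86 on this scale and 11.5 percentage points without scaling (exact permutation adjusted p = 0.05). The call on the relative scale was kept without any one 12 h replicate and lost without any one replicate of 0 or 24 h (adjusted p between 0.0575 and 0.0893).

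No other feature passed in kappa on the relative scale. H3K27ac went from a relative coverage of 0.920 ± 0.260 to 2.01 ± 0.410 and 1.43 ± 0.277 (SD, n = 3 each; exact permutation adjusted p = 0.0536), and it passed without 12 h replicate 3 (adjusted p = 0.0214) and with the stricter lists (adjusted p = 0.0310). Suz12 averaged 1.36, 1.46 and 1.73 and Ring1B 1.73, 1.82 and 2.19, and neither passed (exact permutation adjusted p = 0.191 and 0.321). H3K9me3 was scarce in kappa relative to the autosomes, at 0.156, 0.159 and 0.189 (exact permutation adjusted p = 0.580). It covered 0.108% to 0.728% of the locus at 0 h and 1.55% to 2.18% at 24 h, an unscaled rise of 1.31 points (exact permutation adjusted p = 0.00260).

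Along kappa the marks were not spread evenly. In the 100 kb block from 68250 to 68350 kb, which holds Igkv11-106, Igkv2-107 and Igkv1-108, H2AK119Ub covered a mean of 74.0%, 66.0% and 72.5% at 0, 12 and 24 h and H3K27me3 52.1%, 52.6% and 70.4%. Ring1B covered 45.0%, 48.1% and 46.6% there and Suz12 40.8%, 36.0% and 38.6%, and H3K27ac went from 8.2% to 39.1% and 37.1%. The bins of Igkv11-106 and Igkv2-107 were covered to 100% by H2AK119Ub in all 12 libraries and by H3K27me3 in all 10. A second block, from 69950 to 70050 kb, held H2AK119Ub at 60.8%, 34.4% and 43.6% and H3K27me3 at 38.6%, 50.0% and 70.3%. In that block Suz12 covered 1.6%, 0.7% and 4.6% and Ring1B 5.3%, 9.2% and 5.8%. Both histone marks of Polycomb were thus high in both blocks, and the subunits in the first.

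**Figure D5:**
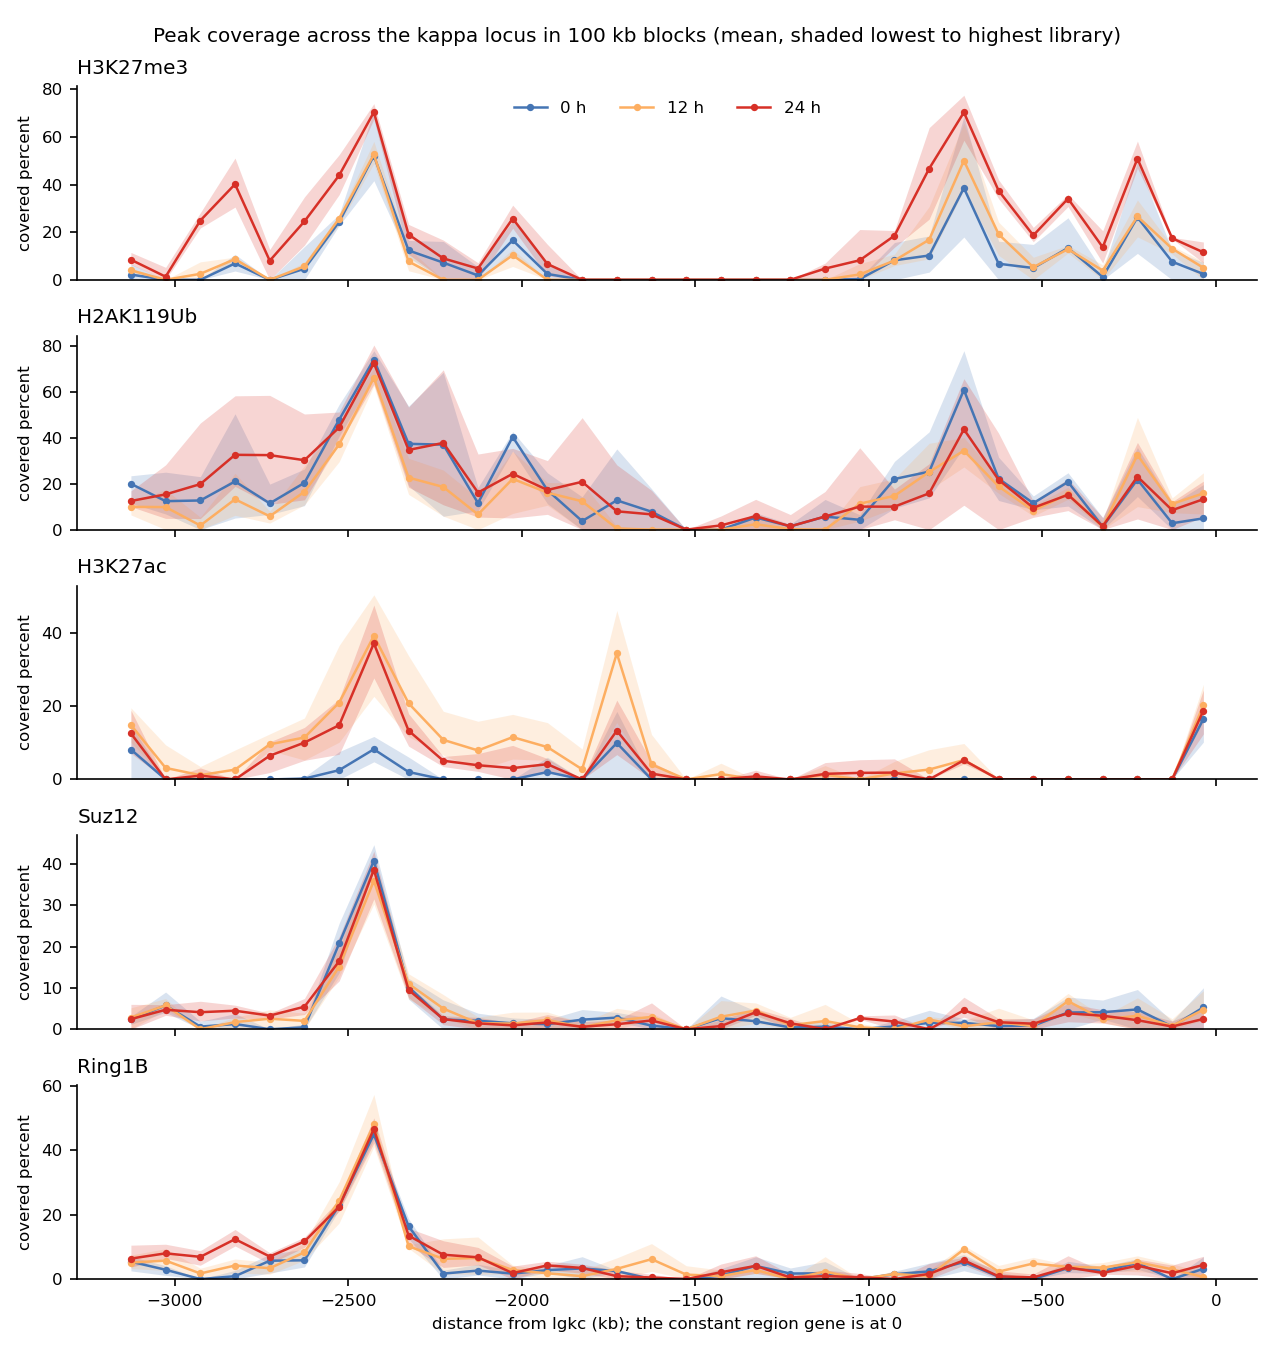
Covered percent of 100 kb blocks (vertical axis) by distance in kb from Igkc, 1 panel per antibody, as means at 0, 12 and 24 h with shading from the lowest to the highest library. H2AK119Ub and H3K27me3 share high blocks, such as 68250 to 68350 kb at 72.5% and 70.4% at 24 h.

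Bin by bin, H3K27me3 rose in many bins, most of them in kappa. Over the 3 loci 41 of 127 tested bins were called, all 41 higher at 24 h, where 53.8% of all bins tested in the genome were called and 53.6% were higher. Many of the called bins were at 0 in every library of 0 and 12 h. Such bins met the filter of 3 libraries only through the 24 h group, so their direction was fixed in advance. With no filter 27 bins were called, against 27.9% of all bins. The median difference between 24 and 0 h was 31.1 points in the 127 tested bins and 46.2 in all bins. The largest rise was at Igkv1-132 and Igkv1-131 (67760 kb), at 0 in the 0 h libraries and 83.9% to 100% at 24 h (93.8 points, SE 12.3, limma adjusted p = 0.000568). Next were a bin without an annotated segment (70120 kb, 0 to 83.5%, adjusted p = 0.00172) and Igkv8-19 (70340 kb), at 0 in every library of 0 and 12 h and 79.5% at 24 h (limma adjusted p = 0.000712). After scaling 25 bins were called, 15 higher and 10 lower, where 19.4% of all bins were called, 16.2% higher and 2.85% lower. The lower bins included those of Igkv11-106 and Igkv2-107, at 100% in every library, where only the divisor changed. The unscaled count of 41 became 24 without 0 h replicate 1 or 24 h replicate 4 (33.3% and 45.1% of all bins). It became 26 without 0 h replicate 2 (33.1% of all bins) and 27 without 12 h replicate 3 (42.2%).

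For H2AK119Ub, bins of the loci centred near no change. The median difference over the 202 tested bins of the loci was -2.89 points, where all bins had 26.1. Igkv12-47 (69750 kb) averaged 98.3%, 56.5% and 45.1% (24 minus 0 h -53.2 points, SE 14.3, limma adjusted p = 0.0320), and a bin without an annotated segment (70030 kb) 75.8%, 3.63% and 45.2% (adjusted p = 0.0234). Toward the far V end, Igkv9-123 (67950 kb) went from 3.39% and 0 to 59.9% (limma adjusted p = 0.0217). After scaling 93 of the 202 bins were called, 4 higher and 86 lower, where 29.7% of all bins were called, 18.2% higher and 7.79% lower. The lower bins included those of Igkv11-106 and Igkv2-107, covered to 100% in every library. For such bins only the divisor changed, so the scaled fall does not show a loss of covered percent. The unscaled count of 15 became 6, 8, 9 and 6 when 0 h replicates 1 to 4 were left out in turn. The shares of all bins called were then 14.4%, 18.1%, 14.6% and 14.5%. Without 24 h replicate 4 the count was 25 (38.9% of all bins).

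H3K27me3 reached more V segments with time. Of 102 kappa V segments, 9 (8.82%) were touched by it in at least 50% of libraries at 0 h, 12 at 12 h and 32 (31.4%) at 24 h. For H2AK119Ub the counts were 31, 24 and 34, for H3K27ac 1, 15 and 11, and for H3K9me3 0, 1 and 1. Suz12 went from 5 to 11 and Ring1B from 7 to 16 between 0 and 24 h. At 24 h H3K27me3 held 116 and H2AK119Ub 120 of the 317 variable bins in at least 50% of libraries, and 82 held both (70.7% and 68.3% of each). Of the 31 bins with H3K27ac 24 also held H2AK119Ub (77.4%). These counts follow the covered percent, which rose over the autosomes too, and no test was made on them.

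The most covered kappa bins by H3K27ac were Igkv1-108 (68310 kb), with means of 48.4%, 98.2% and 76.9%, Igkv2-116 (68150 kb) with 25.3%, 77.0% and 71.9%, and Igkv2-137 at the far end (67550 kb) with 40.1%, 62.2% and 52.4%. None of them passed (limma adjusted p = 0.156, 0.351 and 0.742). H3K9me3 had its highest bin at Igkv12-67 and Rprl1 (69320 kb), with means of 25.0%, 61.1% and 71.7%. Of 18 bins tested for H3K9me3 3 were called, against 22.7% of all bins. They were bins without an annotated segment at 68690 kb (0, 40.3% and 44.1%, limma adjusted p = 0.0387) and 70000 kb (0, 32.4% and 43.8%, adjusted p = 0.0286), and the lambda bin of Iglj2. That count was 0 after scaling (10.8% of all bins) and 0 without 0 h replicate 1 or 4 (8.71% and 9.41%). It was 1 without 0 h replicate 2 or 3 (24.0% and 12.1%) or 24 h replicate 1 or 3 (21.6% and 18.1%). Suz12 and Ring1B had no bin called by limma, of 138 and 148 tested (0.122% and 0.102% of all bins). At an unadjusted p under 0.05 there were 6 and 16.

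At the constant end of kappa H3K27ac was present throughout. The bin of Igkc (chr6:70726435-70726754) and its J segments was covered by H3K27ac to 81.3%, 100% and 100% at 0 h and to at least 99.2% in every later library. H3K27me3 and H3K9me3 had no peak there in any library. H2AK119Ub covered 0%, 38.9%, 0% and 0% at 0 h, 0%, 32.6% and 29.1% at 12 h, and 41.8%, 38.9%, 0%, 22.1% and 27.6% at 24 h (difference 16.3 points, SE 13.1, limma adjusted p = 0.530). The Igkc gene with 2 kb on each side was at 100% H3K27ac in 9 of 9 libraries and at 0 H2AK119Ub in 12 of 12, so the H2AK119Ub of that bin lay outside it. Suz12 and Ring1B were at 0 there at 0 h and each present in 2 of 3 libraries at 24 h, Suz12 at 19.6% and 17.0% and Ring1B at 29.5% and 23.0%.

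The lambda locus, of 250 kb, was the most densely covered of the 3 and was described without a test of the whole. H2AK119Ub covered 41.2%, 37.7%, 35.4% and 35.9% at 0 h, 27.1%, 31.9% and 19.7% at 12 h, and 35.6%, 27.2%, 25.5%, 20.9% and 32.4% at 24 h. The 12 h libraries lay below those of 0 h, and 24 h replicate 1 overlapped them. Relative coverage averaged 25.3 ± 6.85 (SD, n = 4), 5.05 ± 0.332 (n = 3) and 5.84 ± 1.74 (n = 5), above that of kappa at each time. H3K27ac covered 25.8% to 37.1% at 0 h, 35.9% to 38.6% at 12 h and 34.0% to 46.4% at 24 h. H3K27me3 covered 7.85%, 13.1% and 19.5% at 0 h and 20.0% to 26.1% at 24 h, above every 0 h library. Suz12 covered 7.23% to 16.1% and Ring1B 10.5% to 18.4% over all times. H3K9me3 was at 0 in 4 of 4 libraries at 0 h and at 1.48% to 3.78% at 24 h.

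Unlike Ighm and Igkc, the lambda constant genes carried H3K27ac and H2AK119Ub together. Iglc3 (chr16:19065365-19065681), with 2 kb on each side, was covered to 100% by both marks, and also by H3K27me3, in every library. Its neighbour Iglc1 (chr16:19061752-19062071) was covered to between 21.8% and 29.1% by H2AK119Ub. Iglc2 (chr16:19198536-19198852) was at 100% H3K27ac in 9 of 9 libraries. H2AK119Ub covered Iglc2 to 87.4%, 71.9%, 100% and 100% at 0 h and 93.8%, 94.9%, 11.9%, 0% and 53.6% at 24 h (limma adjusted p = 0.268). H3K27me3 at Iglc2 rose from 0 at 0 h to a mean of 56.3% at 24 h (SE 18.5, limma adjusted p = 0.0343, where 56.8% of all gene regions were called). Iglc1 to Iglc4 are related genes, Iglc4 being a pseudogene, and how alike they are was not measured here. Values of single genes are uncertain where sequences are alike, since how such reads were shared is not given in the sources used here.

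Among the other lambda bins, some were fully covered throughout and some changed. LOC105246083 (19090 kb) was at 100% H2AK119Ub in 12 of 12 libraries, with H3K27me3 at a mean of 64.5%, 100% and 98.4%. The bin of Iglv1, a V segment (19080 kb), was at 63.2% H3K27me3 in all 10 libraries, and a bin without an annotated segment (19150 kb) at 100% H3K27ac in 9 of 9. In lambda 34.7% of H3K27me3 peaks shared both edges with a peak of another antibody, against 0.425% of all H3K27me3 peaks. Whether such fixed values follow where reads can be placed was not tested. Gm35545 (19230 kb) lost H2AK119Ub, with means of 96.3%, 54.9% and 34.9% (24 minus 0 h -61.4 points, SE 16.4, limma adjusted p = 0.0336). The Iglj2 bin (19200 kb) gained H3K9me3, from 0 to 41.1% (limma adjusted p = 0.0335), and H3K27me3, from 0 to 18.4% (adjusted p = 0.0491). The single bin called for H3K27ac was Gm10088 (19020 kb), at 100% in every library of 0 and 24 h and at 0 in every library of 12 h (limma adjusted p = 0.0225). With no spread between its replicates, that p rests on the spread of other bins.

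Genes that assemble and diversify the loci lie elsewhere in the genome and were tested as gene regions with 2 kb on each side. Of the 24 genes of this list, 14 could be tested for H2AK119Ub and 3 rose (33.2% of all gene regions were called, and 31.0% were higher at 24 h). They were Vpreb3 (11.6%, 88.6% and 93.8%, limma adjusted p = 0.000916), Igll1 (0, 49.8% and 77.2%, adjusted p = 0.00786) and Dntt (27.5%, 72.6% and 72.0%, adjusted p = 0.0195). Igll1 encodes part of the surrogate light chain of precursor B cells, and Dntt the polymerase that adds bases at junctions. For H3K27me3 3 of 7 tested genes rose, where 56.5% of all gene regions were higher at 24 h, and among them were Rag2 (39.2%, 32.0% and 73.9%, limma adjusted p = 0.0292) and Nhej1, a factor of DNA end joining (0 to 7.58%, adjusted p = 0.00296). After scaling, Nhej1 was the 1 gene of the list still called for H3K27me3 (19.8% of all gene regions). For H2AK119Ub 4 genes were then called (38.8% of all gene regions), Igll1 and Xrcc6 higher and Rag1 and Rag2 lower. The differences of these 2 in relative coverage were -27.8 and -29.6 (limma adjusted p = 0.0109 and 0.0124), and Vpreb3 and Dntt no longer passed. No gene was called by limma for H3K27ac, Suz12 or Ring1B (0 of 14, 0 of 21 and 0 of 24), with 4, 1 and 6 at an unadjusted p under 0.05, and none could be tested for H3K9me3. All gene regions called were 1.5%, 0% and 0.085% for these 3 features.

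Of 18 regulators of the loci, 10 could be tested for H2AK119Ub and 4 rose, where 33.2% of all gene regions were called and 31.0% were higher. They were Spib (0, 65.0% and 96.9%, limma adjusted p = 0.00187), Irf8 (0, 8.83% and 64.8%, adjusted p = 0.00746), Pou2f2 (6.31%, 18.9% and 31.8%, adjusted p = 0.0316) and Pax5 (0, 0.133% and 11.0%, adjusted p = 0.0405). All 4 are transcription factors of B cells, and Pou2f2 binds the octamer shown above. After scaling Pou2f2 did not pass (limma adjusted p = 0.705), while Spib, Irf8 and Pax5 did (38.8% of all gene regions). For H3K27me3 both genes tested rose, where 56.5% of all gene regions were higher: Prdm1, which drives plasma cell formation (11.3%, 14.4% and 50.0%, limma adjusted p = 0.00525), and Pou2f2 (6.13%, 13.3% and 32.8%, adjusted p = 0.0143). Neither passed after scaling (limma adjusted p = 0.484 and 0.469). The median difference over the tested members was 12.1 points for H2AK119Ub, where all gene regions had 18.01. H3K27ac, Suz12 and Ring1B had no call by limma in 18, 15 and 16 genes, with 2, 0 and 2 at an unadjusted p under 0.05. After scaling, Spib was called for Ring1B, higher at 24 h by 24.6 in relative coverage (limma adjusted p = 0.0493, 0.0541 without scaling), where 0.408% of all gene regions were called.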

How the data were processed

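The 61 lists of peaks analysed here cover 6 antibodies, and 3 IgG samples were not analysed here. The authors deposited 1 list per library, and no list pools replicates. The 6 unnamed columns of a list hold positions with the total and the highest signal (coverage) of each peak. That deposited signal was used only to rank peaks within a list. Per the file names, SEACR was run as "norm relaxed" for histone marks and "non, top 0.01, stringent" for Suz12 and Ring1B, so the length of the latter lists reflects a fixed share. Per the submitters' processing notes the build was mm10, with Trimmomatic 0.32, Bowtie2 2.3.4.1, Picard and deepTools 3.5.1. Not given in the sources used here are the SEACR version, the rule that assigned reads to an allele and the sequencing depth, so no counting interval can be given.

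Peaks were merged within a list, and the covered percent was computed for regions, 10 kb bins and genes with 2 kb on each side (RefSeq, GRCm38.p6, the assembly of mm10). Gene segments are those of the reference, and the castaneus chromosome may hold others. Regions were compared with 2-sided exact permutation tests over the 3 times, 15 tests in all (3 of 18 had no peak), adjusted by Benjamini-Hochberg. Constant and variable parts were compared by exact sign-flip permutation within libraries (5 antibodies). Bins and gene regions were tested with limma's moderated F-test (trend and robust) across all bins or genes with a peak in at least 3 libraries of the antibody, at an adjusted p of 0.05. A bin or gene with peaks at 24 h alone met this filter only through that group, so its direction was fixed. A called feature is higher or lower where the contrast of 24 against 0 h has an unadjusted p under 0.05. Scaled values are divided by the autosomal covered percent of the list. Stricter lists keep the 50% of peaks with the larger total signal, and lists of equal length keep the same number per antibody by highest signal. The tests were checked on simulated data. Tools were Python 3.11.15, pandas 2.3.3, numpy 2.4.6, SciPy 1.17.1, matplotlib 3.10.9, R 4.3.3 and limma 3.58.1.

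Named were all constant genes, Adam6a and Adam6b, every bin of the heavy chain constant part and of Igkc, and per antibody elsewhere up to 3 bins with the highest mean and 3 called bins with the largest difference. Of each gene list up to 3 called genes by smallest p were named, and Pax5, Pou2f2 and others beyond that were named because the list's calls were 5 or fewer. One gene of the assembly list is not reported here. The members and lists were chosen with earlier results of these data known. The labels call the replicates biological and tie no number to an animal. Same-numbered libraries of different times did not deviate together (correlations from -0.214 to 0.0824), so they were not paired.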

Additional observations from a re-analysis of the deposited data

Results flagged for a closer look

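Of 21 groups of 4 to 5 libraries examined, 3 held a library far from the others. Where all the others were at 0, any 1 library with a peak was flagged, and regions were read in the same libraries. The count is therefore not set against a rate by chance. H2AK119Ub 0 h replicate 2 had a relative coverage of 16.4 in the bin of Igkc, and the other 3 libraries of that group were at 0. H3K9me3 12 h replicate 4 had a relative coverage of 0.214 in the lambda locus beside 3 libraries at 0. H3K9me3 24 h replicate 1 had a relative coverage of 0.241 in the kappa locus, and the nearest of the others was at 0.176.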

How the results depend on the processing

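Sequencing depth is unknown, and list length limits what relative coverage can show. Changes between 24 and 0 h are given in relative coverage, or in percentage points without scaling. Without scaling, the change in kappa turned to 11.5 for H3K27me3 and 0.41 for H2AK119Ub. H2AK119Ub gave -0.69 in the heavy chain variable part and 26.0 in the constant part, and Suz12 0.66 in the variable part, none of which passed, while H3K9me3 in kappa (1.31) did. With stricter lists, H3K9me3 (0.0873) and H3K27ac (0.736) passed in kappa, and Suz12 in the heavy chain variable part (0.785) and the constant minus variable differences of H2AK119Ub (1.53) and Ring1B (1.89) did not. With lists of equal length, calls were lost for H2AK119Ub in the constant part (2.60), Suz12 in the variable part (0.61) and the constant minus variable differences of H3K27me3 (-0.107), H2AK119Ub (1.06) and Ring1B (1.92). Causes were not tested.

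With the replicate number as a block, which the data do not support as a pairing, calls were lost for H3K27me3 in kappa (-1.86, exact permutation adjusted p = 0.119), H2AK119Ub in the constant part (4.05, 0.104) and Suz12 in the variable part (0.61, 0.119). Bins called went with the block from 41 to 23 for H3K27me3 (30.4% of all bins). The 3 of H3K9me3 and the 1 of H3K27ac were lost (0 left for each, with 18.1% and 0% of all bins called).

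Shares of all bins called are given in brackets. Bins called for H3K27me3 numbered 25 after scaling (19.4%), 21 with stricter lists (51.5%) and 27 with no filter (27.9%). For H2AK119Ub, 15 became 93 after scaling (29.7%) and 7 with no filter (11.9%). For H3K9me3, 3 became 0 after scaling (10.8%) and 1 with stricter lists (15.5%). For H3K27ac, 1 became 0 after scaling (0%), 4 with stricter lists (2.84%) and 0 in bins of 20 kb.

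Leaving out 1 library in turn gave -2.07 to -1.49 for H3K27me3 in kappa and 0.349 to 0.632 for H3K27ac there. The constant minus variable difference ran from 1.67 to 2.38 for H2AK119Ub, 1.19 to 1.85 for Ring1B and 0.359 to 0.852 for Suz12. Bins called ran from 24 to 51 for H3K27me3, 6 to 25 for H2AK119Ub, 0 to 4 for H3K9me3 and 0 to 5 for H3K27ac. The shares of all bins called ran from 33.1% to 54.8%, 14.4% to 38.9%, 8.71% to 24.0% and 0% to 4.85% in that order. The 3 H2AK119Ub region calls were kept without any 1 library (3.64 to 4.74 in the constant part, -1.62 to -1.51 in the variable part, -8.87 to -7.59 in kappa).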

Other observations

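Peaks of different antibodies shared edges in these loci. Of 4164 peaks, 488 (11.7%) started at the same base as a peak of another antibody, where 2.31% of all peaks did, and 3.60% shared both edges, against 0.170%. The share with a common start was 25.5% in lambda, 12.7% in kappa and 3.97% in the heavy chain locus. By mark it was 28.1% for H3K27me3 and 19.8% for H2AK119Ub in the loci, against 4.31% and 4.82% over the genome. No H3K9me3 peak of the loci shared a start. Pseudogene V segments of kappa, 60 in all, were touched by H3K27me3 in at least 50% of libraries in 9 cases at 0 h and 17 at 24 h, and by H2AK119Ub in 20 and 17.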
